A study of Mus musculus with 13 samples.

Results

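The 26 genes described here encode subunits of voltage-gated potassium channels and were chosen by name, of 37785 genes counted in each library. They are 21 pore-forming subunits (6 of the Kv1 family, Kcnb2 of Kv2, 3 of Kv3, 3 of Kv4, 2 of Kv7 and 6 of the EAG, ERG and ELK branches) and 5 auxiliary subunits (Kcnab1, Kcnab2, Kcnip1, Kcnip3 and Kcnip4). The question was how their transcripts differed between ages in cells sorted from mouse brain for Pdgfra, a surface receptor used to enrich oligodendrocyte precursor cells (OPCs), the glial progenitors that give rise to myelinating oligodendrocytes. The 13 bulk libraries of total RNA came from wild-type C57BL/6 brains at E16 (embryonic, 3 libraries), P12 (postnatal, 3), P80 (adult, 3) and P310 (older adult, 4). The age field gives 81 days for 2 of the P80 libraries and a few days less than the nominal age for those at P310. No transgene, deletion or drug separates the groups, and the sort is by magnetic beads, which enrich a cell type without isolating it. Beads that remove myelin were used before the sort at P80 and P310 only, so that step and adult age cannot be told apart.

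Voltage-gated potassium channels are tetramers that open when the membrane depolarizes and let potassium out, which brings the membrane back towards rest. Subunits of the same family combine, so the mix of genes sets the current: Kv1, Kv2 and Kv3 give mostly delayed rectifier currents, Kv4 gives the transient A-type current, Kv7 the slow M-current, and beta subunits and Kv channel interacting proteins change gating and transport. OPCs are known for large delayed rectifier and A-type currents that shrink as they become oligodendrocytes, while the same genes are also used by neurons, vascular muscle and microglia.

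The libraries held 8669521 to 25810455 gene counts, of which the 26 genes took 0.0151% to 0.0461% (1804 to 8595 counts per library). Levels are given as CPM, counts scaled to a common library size (TMM). Where no read was counted for a gene, up to 3 counts remain possible, which is 0.116 to 0.346 CPM by library before TMM scaling. This covers counting error alone, as copies made by PCR are no separate molecules. Over 26 members, P12 replicates 2 and 3 differed by 1.7 times counting noise (chi-square per degree of freedom), against 6.432 to 75.59 for other pairs of the same age. They were summed into 1 sample, called P12 replicates 2+3, which leaves n = 3, 2, 3 and 4 at the 4 ages. The labels do not say that each library is a separate mouse, so p-values measure the spread between these samples, which may in part be technical. Mitochondrial genes took 1.52% to 4.44% of counts at E16 and in P12 replicate 1 and 10.1% to 34.4% elsewhere. The Y-linked Ddx3y had 186 to 1363 counts in each E16 and P12 library and 1 count in all at P80 and P310. Xist, a transcript of female cells, had 2092 to 4810 counts at E16 and 3857 to 11630 at P80 and P310. At P12 it had 4728 counts in replicate 1 and 19 and 38 in replicates 2 and 3. Sex-linked transcripts thus moved with age and separated the P12 samples, and sex and adult age cannot be told apart.

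The sort marker and most other OPC markers were counted in every sample but did not dominate. Over the 4 ages in order, Pdgfra had means of 33.0 ± 6.96, 70.1 ± 33.2, 37.1 ± 18.4 and 30.7 ± 25.8 CPM (SD). Olig2, an oligodendrocyte lineage factor, stood at 5.86 ± 1.58, 14.2 ± 2.29, 4.47 ± 2.99 and 3.92 ± 5.83 CPM. Neu4 had no count at E16, in P80 replicates 2 and 3 or in P310 replicate 4. Matn4 had none in E16 replicate 1, and C1ql1 none in P80 replicate 3. The summed level of 12 OPC markers was 376.5 to 439.5 CPM at E16, 557.2 to 677.3 at P12, 233.6 to 320.6 at P80 and 136.8 to 320.6 at P310. At E16 the sum of 17 immature neuron markers was far higher, at 7516 to 8736 CPM, and from P12 on the sum of 12 endothelial markers was, at 4319 to 8057 CPM. A bulk level therefore belongs to this mixture, in which fewer cells of a type and less RNA per cell cannot be told apart.

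Upstream sequences are shown for the 4 members whose difference over all ages passed the test under every one of 22 alternative analyses, Kcnh1 and Kcna2, which rose after E16, and Kcnd3 and Kcnh8, which fell. Each line holds the bases before a RefSeq transcription start (GRCm38.p6, 5′ to 3′) that lie outside the gene's own exons in the GENCODE M21 annotation. Capitals mark the matches to 5 searched motifs, listed after the sequences. The stretches are Kcnh1 at chr1:192190527-192190773 (+), Kcna2 at chr3:107101395-107101566 (+), which lies inside the annotated gene, Kcnd3 at chr3:105451640-105451889 (+) and Kcnh8 at chr17:52602459-52602708 (+).
Kcnh1: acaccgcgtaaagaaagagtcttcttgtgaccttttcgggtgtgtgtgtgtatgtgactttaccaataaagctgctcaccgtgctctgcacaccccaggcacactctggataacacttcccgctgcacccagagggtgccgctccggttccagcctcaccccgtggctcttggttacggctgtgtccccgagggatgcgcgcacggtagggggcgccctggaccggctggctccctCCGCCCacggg
Kcna2: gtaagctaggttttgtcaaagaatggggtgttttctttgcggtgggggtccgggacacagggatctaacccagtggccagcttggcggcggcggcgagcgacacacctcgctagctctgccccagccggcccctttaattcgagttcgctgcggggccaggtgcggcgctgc
Kcnd3: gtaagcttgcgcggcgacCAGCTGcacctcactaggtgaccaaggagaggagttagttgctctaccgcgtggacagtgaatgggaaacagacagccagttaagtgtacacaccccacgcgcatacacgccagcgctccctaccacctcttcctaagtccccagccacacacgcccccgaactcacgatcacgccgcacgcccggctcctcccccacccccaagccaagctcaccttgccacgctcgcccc
Kcnh8: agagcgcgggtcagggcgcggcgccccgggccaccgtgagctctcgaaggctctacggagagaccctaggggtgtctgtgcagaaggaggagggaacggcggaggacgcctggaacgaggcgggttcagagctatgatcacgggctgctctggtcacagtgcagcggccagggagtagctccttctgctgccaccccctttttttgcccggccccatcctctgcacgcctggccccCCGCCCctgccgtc
All 4 windows held more CpG than most. Within the 250 bases before the start Kcnh1 held 17 CpG, Kcna2 18, Kcnd3 18 and Kcnh8 20, against a median of 6 over 32851 RefSeq windows. The members matched 34 windows of 21 genes, with a median of 7 CpG, and 17 of the 34 lay above the median of all. No window was matched for Kcna1, Kcnb2, Kcnd1, Kcnq3 and Kcnh3.

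The motifs were searched on both strands. The GC box GGGCGG was in 15 of the 34 member windows (44.1%) and in 32.7% of all windows. In the lines above it lies on the minus strand of Kcnh1 and Kcnh8, at positions -14 to -9 relative to the start in both, and so reads CCGCCC. The E-box CAGCTG was in 8 member windows (23.5%, against 4271 of all 32851 windows), 1 of them that of Kcnd3 at -232 to -227, and the E-box CAGATG in 7 (20.6% against 14.4%). By gene, each E-box was found in 5 of the 21 matched members and the GC box in 15. Neither the TATA box TATAAA (12.4% of all windows) nor TTCAGCACC, the left part of the RE1 element (0.301% of all), was found in a member window. Windows of 1 gene overlap, and a match is a description of the letters only.

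All 26 genes were detected, 22 of them in all 12 samples, and all 26 passed the filter on low counts. Their summed level was 374.9 ± 40.81 CPM at E16, 238.4 ± 106.6 at P12, 215.2 ± 53.96 at P80 and 307.5 ± 171.6 at P310, with single samples from 153.0 to 526.3 CPM. Which gene led, on the scale of CPM per kb of exon, changed with age. At E16 the highest were Kcnq3 at 7.37 ± 1.18 CPM per kb, Kcnip3 at 6.14 ± 1.08, Kcnd3 at 4.28 ± 0.618 and Kcna3 at 3.75 ± 0.631, and neighbours in that order lay within their spread except Kcnip3 and Kcnd3. At P12 the order was Kcnip3 (5.41 ± 2.69 CPM per kb), Kcna6 (3.46 ± 0.663), Kcna5 (3.13 ± 1.42) and Kcna2 (2.87 ± 1.76), with overlapping SD ranges. At P310 it was Kcnip3 (5.21 ± 3.38), Kcna2 (4.83 ± 1.89), Kcnc1 (3.87 ± 3.34) and Kcnh1 (3.13 ± 1.95). Kcnip3 was thus in the first 2 places at every age, while Kcnq3 went from 15.33% of the members' per-kb sum at E16 to 2.68%, 1.83% and 3.67% at the later ages. Kcna2 went the other way, from 2.13% to 7.64%, 9.77% and 11.22%, and Kcnh1 from 0.53% to 2.11%, 5.02% and 7.28%.

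**Figure D1:**
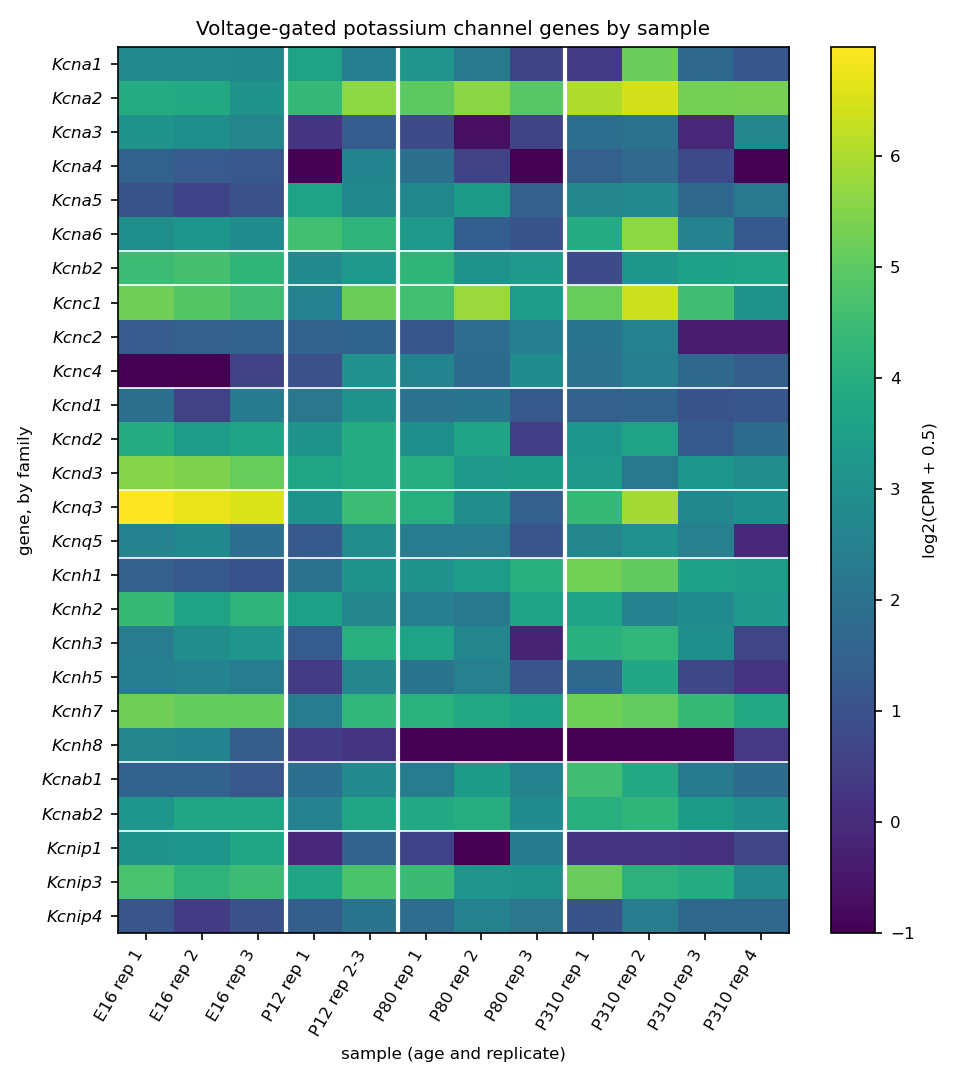
Level of each of the 26 genes (rows, by family) in each of the 12 samples (columns, by age), as log2(CPM + 0.5). In all 3 E16 columns Kcnq3, Kcnd3, Kcnh8 and Kcnip1 are higher, and Kcna2, Kcnh1, Kcna5, Kcnc4 and Kcnab1 lower, than in any of the 9 later samples, and rows such as Kcnc1 and Kcnh3 vary within an age.

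Between E16 and P12, 3 members rose (Kcna2, Kcna5 and Kcnc4) and 2 fell (Kcnd3 and Kcnh7). That is 5 of 26, or 19.2%, where 27.2% of all 21170 genes tested were called (16.7% up and 10.5% down), so the share called is no more than that of genes in general. The median log2 change was -0.11 over the members and 0.09 over all genes. Between E16 and P80, 4 rose (Kcna2, Kcna5, Kcnc4 and Kcnh1) and 5 fell (Kcna3, Kcnd3, Kcnq3, Kcnh7 and Kcnh8), 34.6% against 40.7% of all genes (21.5% up and 19.2% down), with medians of -0.45 and 0.12. Over all 4 ages together 8 members differed, 30.8% against 37.1% of all genes. These comparisons share the E16 samples. Calls are edgeR quasi-likelihood tests at a Benjamini-Hochberg adjusted p under 0.05 over all genes tested.

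No member was called between P12 and P80 or between P80 and P310. From P12 to P80 edgeR called 1.42% of all genes (0.406% up and 1.02% down) and 0 of 26 members, with 1 member (Kcnh8) at an unadjusted p under 0.05; DESeq2 and limma-voom also called 0, and edgeR without the low-count filter called 2 lower (Kcna6 and Kcnh8). From P80 to P310 edgeR called 0% of all genes, with 2 members (Kcna3 and Kcnh8) at an unadjusted p under 0.05. There DESeq2 and limma-voom called 0 members too, and edgeR without the filter called 2 higher (Kcna6 and Kcnq3). The median member change was -0.27 for the first of these steps and 0.33 for the second.

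Counting genes whose samples did not overlap gave a like picture. From E16 to P12, 8 members lay wholly higher and 8 wholly lower, 30.8% each way, where 30.9% of all genes did so in either direction. From E16 to P80, 6 lay higher and 6 lower (23.1% each, against 28.2% and 30% of all genes). From P12 to P80 3 lay lower (Kcnd1, Kcna6 and Kcnh8, 11.5% against 15.5%), and from P80 to P310 1 did (Kcnd3, 3.85% against 2.59%), while no member lay higher (2.27% of all genes did). From P12 to P80 no member lay higher either, against 11.1% of all genes. In all 9 later samples Kcna2, Kcna5, Kcnc4, Kcnh1 and Kcnab1 were above every E16 sample (19.2% of members, 17.6% of all genes) and Kcnd3, Kcnq3, Kcnh8 and Kcnip1 were below every one (15.4%, against 20.3%).

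**Figure D2:**
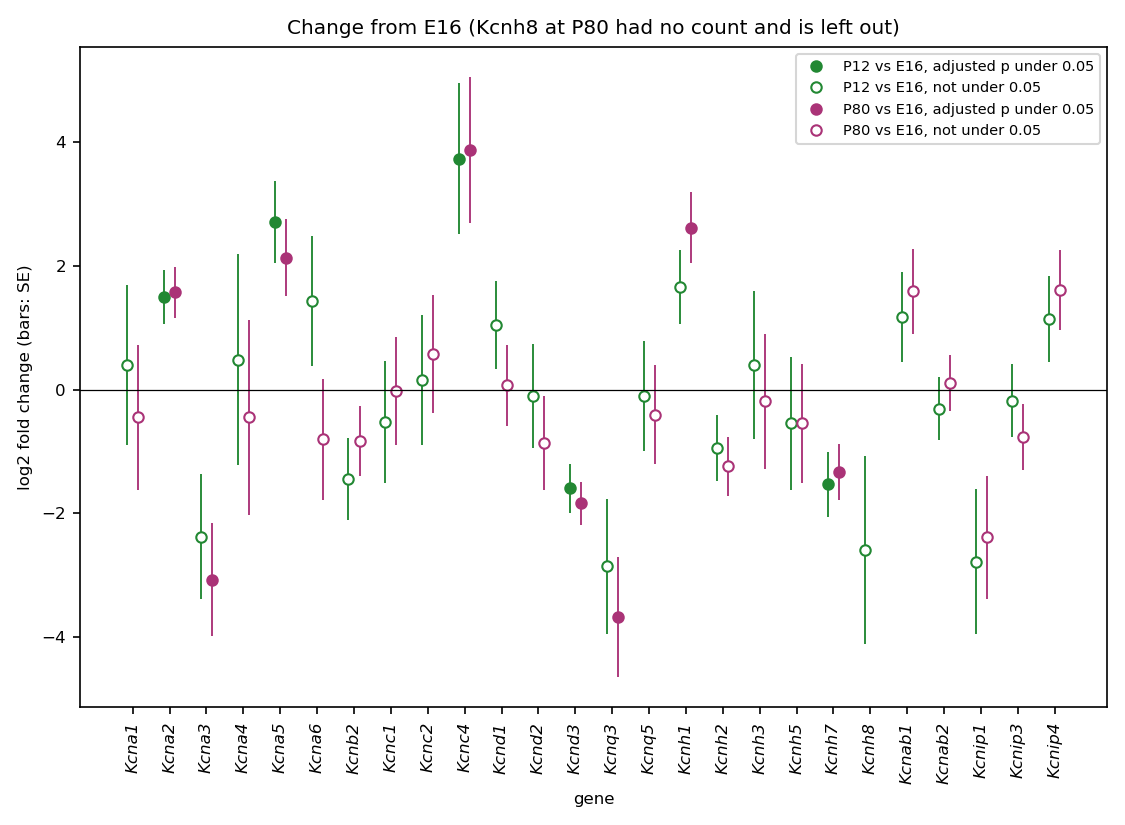
Log2 fold change from E16 to P12 and from E16 to P80 for each member, with standard errors as bars; filled points had an adjusted p under 0.05. Kcna2, Kcna5 and Kcnc4 are filled above 0 at both ages and Kcnd3 and Kcnh7 below 0 at both; Kcnh8 at P80 had no count and is left out of that comparison.

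Among the Kv1 genes, whose products are delayed rectifier subunits of axons and glia, Kcna2 and Kcna5 rose after E16 and Kcna3 fell. Kcna2 (ENSMUSG00000040724, GRCm38 chromosome 3, 107101146 to 107115005) read 14.7, 13.9 and 7.90 CPM in the E16 samples, 19.4 in P12 replicate 1 and 49.0 in replicates 2+3. At P80 it read 31.04, 48.0 and 29.6 CPM, and at P310 64.4, 86.4, 38.9 and 40.5 CPM. Every later sample was above every E16 sample. The means were 12.2 ± 3.72, 34.2 ± 20.9, 36.2 ± 10.2 and 57.6 ± 22.5 CPM. The log2 change was 1.49 (SE 0.44, edgeR adjusted p = 0.0192) from E16 to P12 and 1.57 (SE 0.41, edgeR adjusted p = 0.0063) from E16 to P80. The first of these was no longer called without P12 replicates 2+3 (0.67, edgeR adjusted p = 0.418) or without E16 replicate 3 (1.26, edgeR adjusted p = 0.0808), while the second and the test over all ages (edgeR adjusted p = 0.00304) were called under every alternative.

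Kcna5 (ENSMUSG00000045534, chromosome 6, 126532551 to 126535412), a Kv1 subunit of vascular smooth muscle and glia, was low at E16, with 1.58, 1.03 and 1.47 CPM. It read 11.8 and 6.09 CPM at P12, 6.08, 9.76 and 2.23 at P80 and 5.81, 6.60, 2.76 and 4.16 at P310. No later sample fell to the E16 range. The log2 change was 2.71 (SE 0.66, edgeR adjusted p = 0.00688) at P12 and 2.13 (SE 0.62, edgeR adjusted p = 0.0131) at P80, and the test over all ages gave an edgeR adjusted p of 0.026. The P12 call was lost without P12 replicate 1 (2.16, edgeR adjusted p = 0.0795), and the P80 call without E16 replicate 2 (1.97, edgeR adjusted p = 0.0528) or P80 replicate 2 (1.61, edgeR adjusted p = 0.0601). The call over all ages was lost under 5 of 22 alternatives, among them without any 1 of the E16 samples or P12 replicate 1 (edgeR adjusted p up to 0.111). Of the 50-base runs in its exons 2.81% also occur in Kcna6 and in the antisense gene Gm26673, so a few reads may be shared. Single reads were not traced. The sum of 12 mural cell markers, genes of pericytes and vascular smooth muscle, was 155.5 to 232.5 CPM at E16 and 807.3 to 1514 CPM in the later samples, with 10 of 12 called higher at P12, none at 0 after E16 and only Cnn1 at 0 in 2 E16 samples; the part of these cells in the Kcna5 result was not tested.

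Kcna3 (ENSMUSG00000047959, chromosome 3, 107036169 to 107038070), known from T cells and microglia and from dividing OPCs, was highest at E16, with 8.20, 7.36 and 5.84 CPM. It read 0.684 and 1.99 CPM at P12 and 1.27, 0.123 and 1.04 at P80. At P310 it read 3.17, 3.52, 0.446 and 5.95 CPM, and the last of these was within the E16 range. From E16 to P80 it fell by 3.07 on the log2 scale (SE 0.91, edgeR adjusted p = 0.0143), or 8.79-fold in the means, a call kept under all 23 alternatives. At P12 it was not called (edgeR adjusted p = 0.0967), but it was under 4 of 23 alternatives. The test over all ages (edgeR adjusted p = 0.045) held under only 11 of 22 alternatives, with the removal of any 1 E16 or P80 sample, P12 replicate 1 or P310 replicate 1 among those that ended it (edgeR adjusted p up to 0.134). Kcna3 lies 63.1 kb from Kcna2 on the same strand, and these neighbours changed in opposite directions from E16 to P80. Microglia markers summed to 100.7 to 140.3 CPM at E16 and 348.4 to 1344 later, and the part of these cells in the Kcna3 levels was not tested.

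The other Kv1 genes, Kcna1, Kcna4 and Kcna6, were called by edgeR in no comparison. Kcna6 was called from E16 to P12 under 3 alternatives (no low-count filter, limma-voom, only the ages compared), over all ages under 3, and in both later steps without the filter, and Kcna1 and Kcna4 under none. Kcna1, a subunit of axonal channels beside the nodes of Ranvier, read 6.48, 6.27 and 6.07 CPM at E16, 11.6 and 4.98 at P12, 8.49, 4.20 and 1.04 at P80 and 0.792, 35.0, 2.76 and 1.70 at P310. Kcna6, which neighbours it at a distance of 61.9 kb, read 7.41, 8.57 and 6.84 CPM at E16, 23.4 and 17.8 at P12, 9.19, 2.0998 and 1.60 at P80 and 14.6, 48.9, 5.35 and 1.78 at P310. Both varied little at E16 and were highest in P310 replicate 2; the P12 samples lay above E16 for Kcna6 and on either side of it for Kcna1. Of the exonic bases of Kcna6, 39.61% are shared with the antisense gene Gm26673, and without strand in the counting their reads cannot be told apart. Kcna4, an A-type subunit, read 2.30, 1.93 and 1.77 CPM at E16 and 0 to 5.53 CPM later, with no count in P12 replicate 1, P80 replicate 3 and P310 replicate 4.

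The Kv2 and Kv3 genes changed in 1 case, Kcnc4. Kcnc4 (ENSMUSG00000027895, chromosome 3, 107438303 to 107459552), a Kv3 subunit with fast inactivation, had no count in E16 replicates 1 and 2 and 17 counts (1.002 CPM) in replicate 3. It read 1.49 and 7.74 CPM at P12, 5.57, 2.96 and 6.82 at P80 and 3.56, 4.95, 2.67 and 2.04 at P310, all above E16. The log2 change was 3.74 (SE 1.22, edgeR adjusted p = 0.0342) at P12 and 3.88 (SE 1.18, edgeR adjusted p = 0.0167) at P80, but 9.18 and 9.33 without E16 replicate 3, when E16 holds no count and the fit gives no bound. The P12 call was lost without E16 replicate 1 (3.19, edgeR adjusted p = 0.0934), E16 replicate 2 (3.16, edgeR adjusted p = 0.0845) or P12 replicates 2+3 (2.098, edgeR adjusted p = 0.385) and with only the ages compared (3.85, edgeR adjusted p = 0.0725), and the P80 call without E16 replicate 1 (3.33, edgeR adjusted p = 0.0518). Its test over all ages missed the threshold (edgeR adjusted p = 0.0804) but was called under 6 of 22 alternatives.

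Kcnc1, the Kv3 subunit of fast-spiking neurons, read 37.5, 29.1 and 22.6 CPM at E16, 5.29 and 36.0 at P12, 23.1, 55.0 and 10.2 at P80 and 34.4, 81.2, 22.5 and 8.16 at P310. Its range within each later age was wider than any difference between ages. Kcnc2 read 1.94 to 2.36 CPM at E16, 2.36 and 2.48 at P12, 1.71 to 4.94 at P80 and 0.255 to 5.17 at P310. Kcnb2, the Kv2 member, read 21.4, 24.1 and 18.0 CPM at E16, 6.22 and 9.29 at P12, 18.1, 8.03 and 9.53 at P80 and 1.32, 8.91, 11.3 and 12.1 at P310. Its E16 samples did not overlap those of P12, a step that missed the threshold (edgeR adjusted p = 0.122) but was called under 4 of 23 alternatives. Kcnc2 was called over all ages by limma-voom alone (limma adjusted p = 0.0356).

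Kcnd3 was the Kv4 gene that fell, and had the smallest adjusted p of the 26 genes over all ages. Kcnd3 (ENSMUSG00000040896, chromosome 3, 105452330 to 105674002), a subunit of the A-type current, read 45.7, 43.1 and 34.4 CPM at E16 against 12.4 and 14.6 at P12. At P80 it read 15.1, 9.51 and 9.67 CPM, and at P310 9.50, 4.18, 8.56 and 7.22 CPM. All 9 later samples lay below the lowest E16 sample, and the P310 samples lay below all P80 samples too. Means were 41.0 ± 5.93, 13.5 ± 1.53, 11.4 ± 3.21 and 7.37 ± 2.32 CPM. The log2 change fell by 1.60 from E16 to P12 (SE 0.40, edgeR adjusted p = 0.00731) and by 1.84 to P80 (SE 0.35, edgeR adjusted p = 0.00067), with 8.39e-05 as the edgeR adjusted p over all ages. Leaving out P12 replicate 1 ended the P12 call (-1.49, edgeR adjusted p = 0.0709) and no alternative ended the other calls. Antisense Kcnd3os shares 1.721% of its exonic bases.

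Kcnd2 and Kcnd1, the other A-type subunits, were called by edgeR in no comparison. Among the alternatives limma-voom alone called them, Kcnd1 from E16 to P12 (limma adjusted p = 0.0193) and over all ages (limma adjusted p = 0.0351) and Kcnd2 over all ages (limma adjusted p = 0.02). Kcnd2, the main Kv4 subunit of dendrites, read 14.8, 10.2 and 12.03 CPM at E16, 7.96 and 14.9 at P12, 7.41, 12.2 and 0.904 at P80 and 8.58, 11.5, 1.87 and 3.06 at P310. Kcnd1 read 3.38, 0.965 and 4.30 CPM at E16, 3.98 and 7.89 at P12, 3.48, 3.83 and 1.81 at P80 and 1.60 to 2.42 at P310. Both overlapped E16 at every later age.

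Of the Kv7 genes Kcnq3, a subunit of the M-current that restrains repeated firing in neurons, fell from the highest per-kb level of any member. Kcnq3 (ENSMUSG00000056258, chromosome 15, 65986387 to 66286642) read 126, 108 and 91.2 CPM at E16, 8.09 and 21.6 at P12, 15.8, 7.16 and 2.23 at P80 and 19.8, 59.8, 6.06 and 7.39 at P310. The E16 samples lay above all others, and the nearest later one was P310 replicate 2. The mean at P80 was 12.9-fold lower, a log2 change of -3.68 (SE 0.97, edgeR adjusted p = 0.0121) that was called under all 23 alternatives. At P12 the drop of 7.30-fold in the means missed the threshold (edgeR adjusted p = 0.0802) but was called under 7 of 23 alternatives. Over all ages the edgeR adjusted p was 0.0264, and it rose to as much as 0.084 without any 1 E16 sample or P80 replicate 2. Kcnq5, also of the M-current, read 5.25, 6.09 and 3.24 CPM at E16 and 0.425 to 7.70 CPM later, with no call.

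**Figure D3:**
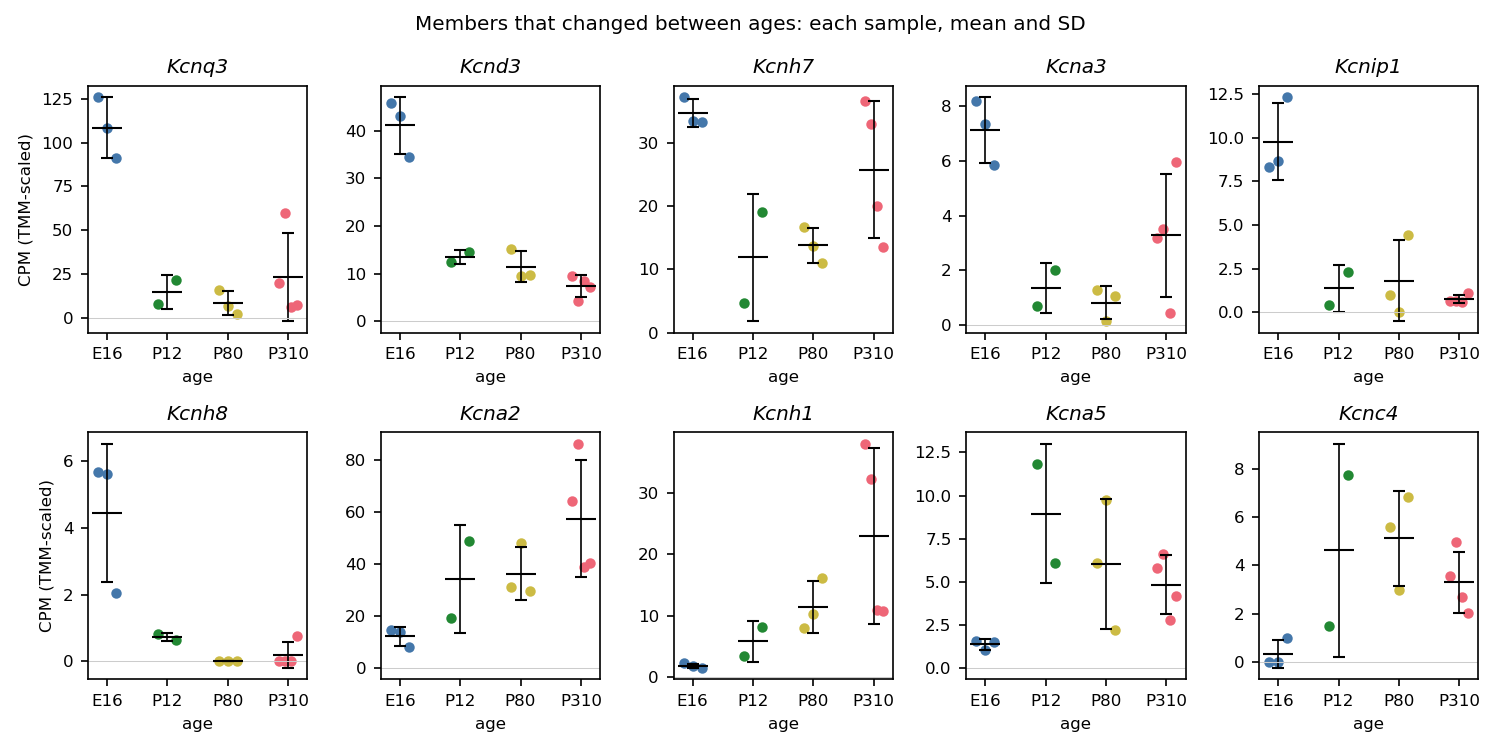
CPM (TMM-scaled) of the 10 members called in at least 1 comparison, in each sample (points) at the 4 ages, with the mean and SD (bars; n = 3, 2, 3 and 4). Kcnq3, Kcnd3, Kcnh8 and Kcnip1 are highest at E16 with no overlap, Kcna3 and Kcnh7 return towards the E16 range in some P310 samples, and Kcna2, Kcnh1, Kcna5 and Kcnc4 lie above E16 in every later sample.

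Kcnh1 of the EAG branch rose after E16, and its mean was higher at each later age. Kcnh1 (ENSMUSG00000058248, chromosome 1, 192190774 to 192510159), a channel also known from dividing cells, read 2.23, 1.81 and 1.53 CPM at E16, 3.42 and 8.19 at P12, 7.92, 10.3 and 16.2 at P80 and 38.0, 32.3, 10.9 and 10.7 at P310. Every later sample was above E16, and the 2 highest were P310 replicates 1 and 2. Means were 1.86 ± 0.351, 5.80 ± 3.37, 11.5 ± 4.27 and 23.0 ± 14.3 CPM. The log2 change to P80 was 2.62 (SE 0.57, edgeR adjusted p = 0.00203) and the edgeR adjusted p over all ages 0.000756, both called under every alternative. The step to P12 lay at the threshold (1.65, edgeR adjusted p = 0.0537) and was called under 13 of 23 alternatives. Between P80 and P310 the means differed 2.01-fold with overlapping samples (edgeR adjusted p = 0.871). Kcnh5, the other EAG gene, read 4.97, 5.49 and 4.66 CPM at E16, 0.809 and 6.00 at P12, 1.67 to 5.06 at P80 and 2.64, 13.1, 1.16 and 0.680 at P310.

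The ERG gene Kcnh7 fell by P12 and was called less firmly than the others. Kcnh7 (ENSMUSG00000059742, chromosome 2, 62693414 to 63184287) read 37.3, 33.5 and 33.4 CPM at E16, 4.73 and 19.0 at P12, 16.7, 13.7 and 10.99 at P80 and 36.7, 33.0, 20.1 and 13.5 at P310. It was lower than at E16 in all P12 and P80 samples, while P310 replicate 1 was back in the E16 range. It fell by 1.54 on the log2 scale to P12 (SE 0.53, edgeR adjusted p = 0.0435) and by 1.33 to P80 (SE 0.46, edgeR adjusted p = 0.0315), and the test over all ages missed (edgeR adjusted p = 0.0514). The P12 change was -0.87 (edgeR adjusted p = 0.298) without P12 replicate 1 and -2.88 without P12 replicates 2+3. Its call also ended without any 1 E16 sample (edgeR adjusted p = 0.0751 to 0.0947), any 1 P80 sample (0.0521 to 0.0556) or P310 replicate 3 (0.0531). With upper quartile size factors (-1.44, edgeR adjusted p = 0.0561) and with only the ages compared (-1.43, edgeR adjusted p = 0.0564) it was not called either, and it held under 12 of 23 alternatives. The P80 call ended without any 1 E16 sample (0.0599 to 0.0774), P80 replicate 2 (0.0746) or P80 replicate 3 (-1.12, 0.125), all edgeR adjusted p. Gca, on the other strand, shares 4.571% of its exonic bases. Kcnh2, the ERG gene of cardiac repolarization, read 19.7, 11.5 and 17.6 CPM at E16, 10.9 and 6.02 at P12, 4.81, 4.08 and 11.7 at P80 and 11.5, 5.39, 6.69 and 9.18 at P310, and its difference between E16 and P80 missed the threshold (edgeR adjusted p = 0.0515) but was called under 9 of 23 alternatives.

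Among the ELK genes Kcnh8 was a gene of the early samples. Kcnh8 (ENSMUSG00000035580, chromosome 17, 52602709 to 52979194) read 5.69, 5.61 and 2.06 CPM at E16 and 0.809 and 0.657 at P12. It had no count in any P80 sample or in P310 replicates 1, 2 and 3, and 0.765 CPM in P310 replicate 4. Against 3 counts over the whole P80 group (0.0784 CPM), the P80 level was at least 56.8-fold lower than at E16 (edgeR adjusted p = 0.00372), and the edgeR adjusted p over all ages was 0.0071, both called under every alternative. The step from E16 to P12, 6.08-fold in the means, was not called (edgeR adjusted p = 0.236), except by limma-voom and with only the ages compared. Kcnh3, an ELK gene of forebrain neurons, read 4.75, 7.24 and 8.43 CPM at E16, 1.99 and 15.8 at P12, 11.8, 5.68 and 0.348 at P80 and 16.1, 18.5, 7.31 and 1.10 at P310, with no call.

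Of the auxiliary subunits Kcnip1 fell. Kcnip1 (ENSMUSG00000053519, chromosome 11, 33629339 to 33993152), a calcium-binding protein that associates with Kv4 channels, read 8.35, 8.69 and 12.3 CPM at E16, 0.435 and 2.33 at P12, 1.01, 0 and 4.45 at P80 and 0.660, 0.660, 0.624 and 1.10 at P310. All later samples lay below E16. The test over all ages gave an edgeR adjusted p of 0.0197, which rose to as much as 0.105 without any 1 E16 sample. Neither the P12 (edgeR adjusted p = 0.0961) nor the P80 difference (0.069) passed alone, though each did under 5 of 23 alternatives. Kcnip1 and the Kv4 gene Kcnd3 were both higher in every E16 sample than in any later one, as were 15.4% of members and 20.3% of all genes. The other Kv4 and Kv channel interacting protein genes among the members, Kcnd1, Kcnd2, Kcnip3 and Kcnip4, did not keep to this order.

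The other auxiliary genes were called by edgeR in no comparison. Kcnip3, which is also a calcium-dependent transcriptional repressor, read 25.5, 17.9 and 21.9 CPM at E16, 12.4 and 25.9 at P12, 21.4, 8.52 and 8.14 at P80 and 35.1, 17.2, 14.98 and 6.63 at P310. Kcnip4 read 0.845 to 1.66 CPM at E16, 2.18 and 3.67 at P12, 3.10 to 5.19 at P80 and 1.58 to 4.73 at P310, and its difference between E16 and P80 missed (edgeR adjusted p = 0.0582) but was called under 8 of 23 alternatives. The beta subunit Kcnab1 read 2.38, 2.35 and 1.77 CPM at E16, 3.23 and 6.53 at P12, 4.62, 9.63 and 5.42 at P80 and 22.6, 14.3, 4.37 and 3.06 at P310. It was above E16 in all 9 later samples, with an edgeR adjusted p of 0.0602 over all ages, and was called there under 7 of 22 alternatives and from E16 to P80 under 5 of 23. Kcnab2, the main beta subunit of Kv1 channels in brain, read 8.64, 12.5 and 12.3 CPM at E16, 5.35 and 12.6 at P12, 14.1, 15.3 and 6.82 at P80 and 15.8, 18.0, 9.63 and 7.39 at P310, overlapping at all ages.

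Other subunits of the same channels were read from a list of 28 genes, of which 23 passed the low-count filter. From E16 to P12 and again to P80, 3 rose and 0 fell, with medians of 0.37 and 0.07. That is 13% at each step, against 27.2% and 40.7% of all genes. Over all ages 4 differed (17.4%, against 37.1% of all genes). Kcnq1 and Kcne4 were among those that rose. Kcnq1, a Kv7 subunit of epithelia and heart, stood at 0.136 ± 0.132 CPM at E16, 14.7 ± 0.849 at P12, 12.9 ± 4.89 at P80 and 13.1 ± 5.59 at P310, a log2 change of 6.75 to P12 (SE 0.71, edgeR adjusted p = 4.56e-06). Its E16 mean lies below 3 counts per library (0.202 to 0.238 CPM at E16 before TMM scaling), so the size of this change is uncertain. Kcne4, a small subunit that inhibits Kv1 and Kv7 channels, stood at 0.374 ± 0.0750, 2.88 ± 0.298, 10.3 ± 7.91 and 4.84 ± 2.82 CPM (4.75 to P80, SE 0.90, edgeR adjusted p = 0.000703).

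Of 14 genes whose products cluster or transport these channels, 1 rose and 2 fell from E16 to P12 (median -0.94), and 2 rose and 6 fell to P80 (median -0.92). These are 21.4% and 57.1% of the list, where 27.2% and 40.7% of all genes were called. Dlg4, the scaffold PSD-95 that binds Kv1 channels, stood at 169 ± 22.7, 44.5 ± 30.7, 43.2 ± 5.22 and 41.6 ± 16.4 CPM and fell (-1.97 to P80, SE 0.39, edgeR adjusted p = 0.00109). Cntnap2 and Cntn2, the adhesion pair that holds Kv1 channels beside the node, fell by P80. Cntnap2 stood at 32.0 ± 3.10, 7.09 ± 6.95, 6.89 ± 1.20 and 9.10 ± 6.01 CPM (edgeR adjusted p = 0.0116 for P80). Cntn2 stood at 883 ± 159, 29.9 ± 14.4, 11.7 ± 5.12 and 58.8 ± 98.2 CPM (edgeR adjusted p = 0.00858 for P80). Lgi3, a secreted ligand linked to axonal Kv1 channels, rose from 2 counts in all at E16 to 15.9 ± 14.2 CPM at P12 (edgeR adjusted p = 0.00207) and 3.38 ± 1.79 at P80 (edgeR adjusted p = 0.00749), and Lgi1 rose from 6.65 ± 2.12 to 14.8 ± 4.78 CPM at P80 (edgeR adjusted p = 0.0341).

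Neuron markers moved with several of these differences. Of 17 immature neuron markers 15 fell from E16 to P12 and 16 from E16 to P80, with median log2 changes of -4.51 and -5.93. Their sum was 7516 to 8736 CPM at E16, 381.9 to 395.0 at P12, 125.3 to 145.5 at P80 and 116.1 to 294.4 at P310, and Dcx went from 916 ± 134 CPM to 23.0 ± 8.76, 4.78 ± 1.96 and 5.02 ± 1.30. None of the 17 was at 0 at E16 or P12, and Nhlh1 was at 0 in 6 of the 7 adult samples. Kcnq3, Kcnd3, Kcnh8 and Kcnip1 were, like this sum, higher in every E16 sample than in any later one. That order held for 15.4% of members and 20.3% of all genes. The part of immature neurons in these differences was not tested. Kcna3 and Kcnh7 did not keep to this order: Kcna3 was back in its E16 range in P310 replicate 4 (5.95 CPM, with the sum at 116.1 CPM) and Kcnh7 in P310 replicate 1 (36.7 CPM, with the sum at 199.9 CPM). Kcna2, Kcnh1, Kcna5 and Kcnc4 went the other way.

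Within the later ages some members had their lowest or highest values in the samples lowest or highest in mature neuron markers, and others did not. The sum of 17 such markers was 473.3 to 534.0 CPM at E16, 63.14 and 339.6 in the P12 samples, 275.5, 337.4 and 98.82 at P80 and 437.4, 767.3, 268.0 and 75.99 at P310. Of the 17, 1 rose and 3 fell from E16 to P12, and Rbfox3 and Snap25 had counts in every sample. The lowest 3 sums, in P12 replicate 1, P80 replicate 3 and P310 replicate 4, are the 3 samples in which Kcna4 had no count. In the same 3 samples Kcnc1 read 5.29, 10.2 and 8.16 CPM and Kcnh3 1.99, 0.348 and 1.10 CPM, their 3 lowest values. Kcna4, Kcnc1 and Kcnh3 are named because they keep to this order, and how many of all genes do so was not counted. Other members went the opposite way: the highest later values of Kcna5 and Kcnh8 were in P12 replicate 1, those of Kcnh2 and Kcnip1 in P80 replicate 3 and that of Kcna3 in P310 replicate 4. P310 replicate 2, with the highest sum, was the highest of the 9 later samples for 10 of 26 members (Kcna1, Kcna2, Kcna6, Kcnc1, Kcnc2, Kcnq3, Kcnq5, Kcnh3, Kcnh5 and Kcnab2), and the lowest for Kcnd3. The TMM factor of this sample was 0.631, against 0.8745 to 1.165 in the others, which raises the CPM of every gene in it. How many of all genes were highest there was not counted, so the 10 are not set apart from genes in general. The part of neuronal RNA in these values was not tested.

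The P12 samples differed in the same way, which bears on every P12 comparison. They also differed in Xist (4728 counts in replicate 1, 19 and 38 in replicates 2 and 3). Of 26 members 21 were higher in replicates 2+3 than in replicate 1, by 7.95-fold for Kcnh3, 7.42-fold for Kcnh5 and 6.80-fold for Kcnc1. The share of all genes that were higher there was not counted, so the 21 are not read as particular to these genes. The 5 that were lower were Kcna1, Kcna5, Kcna6, Kcnh2 and Kcnh8, at 0.428, 0.515, 0.762, 0.550 and 0.813 times the value in replicate 1. Oligodendrocyte markers, 12 genes of myelin-forming cells, summed to 8356 CPM in P12 replicate 1 and 67580 CPM in P310 replicate 2, against 62.50 to 81.50 at E16 and 338.1 to 921.2 in the other later samples, although myelin had been removed at P310. Kcna1 and Kcna6 had their highest values in those 2 samples. Without both, a setting chosen after seeing the data, Kcna5 (2.19, edgeR adjusted p = 0.0661) and Kcnh7 (-0.83, edgeR adjusted p = 0.279) were no longer called at P12, while all 9 members called at P80 were still called. The same setting ended the calls of Kcna3 and Kcna5 over all ages, so that 6 members were called in place of 8.

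**Figure D4:**
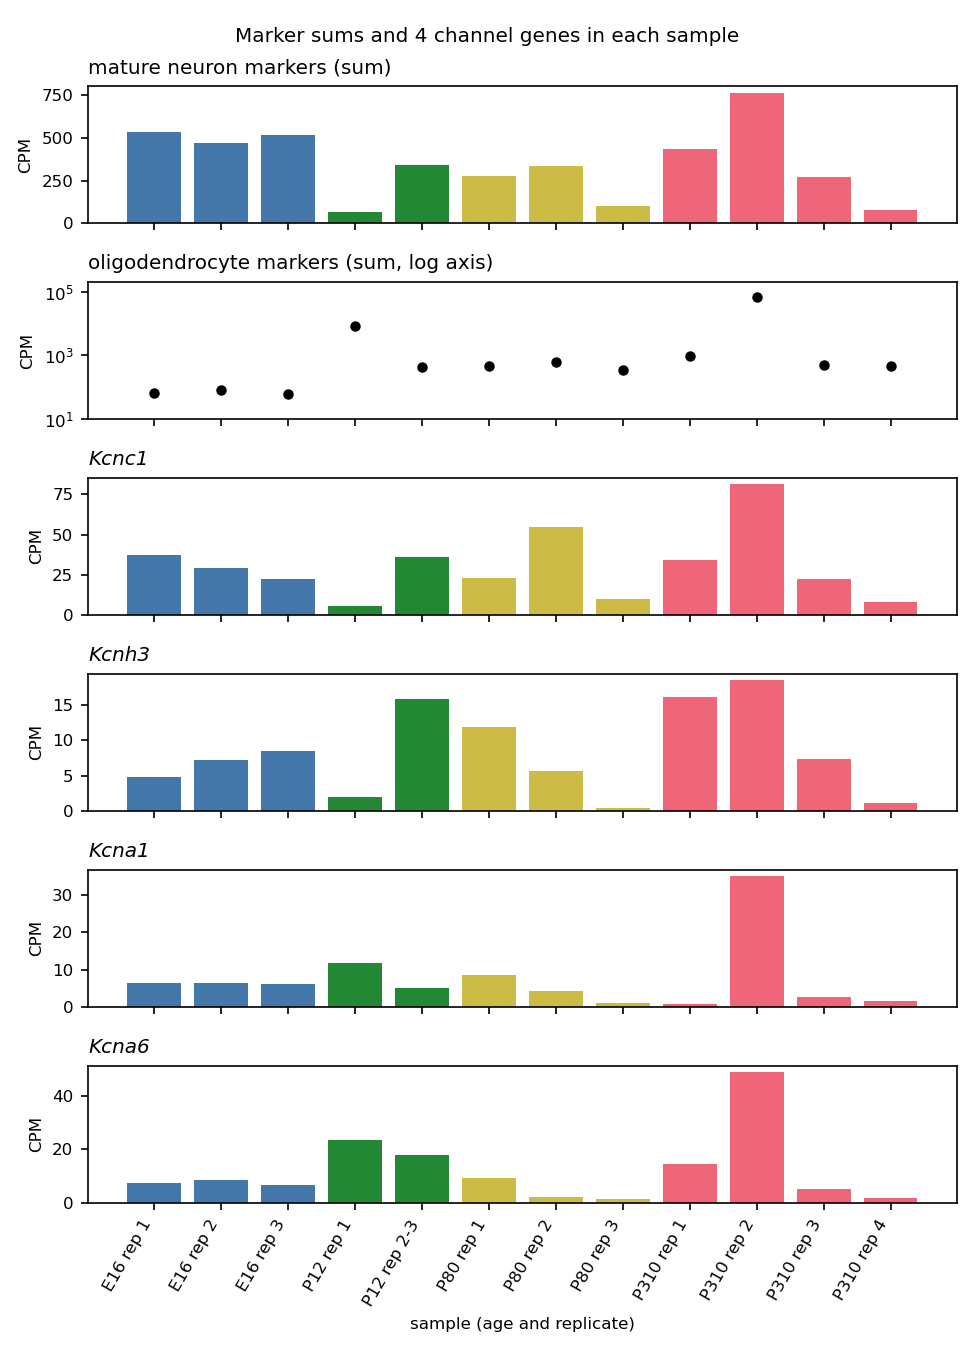
CPM in each of the 12 samples of the summed mature neuron markers, the summed oligodendrocyte markers (points, log axis) and Kcnc1, Kcnh3, Kcna1 and Kcna6 (bars from 0). Kcnc1 and Kcnh3 are lowest where the neuron sum is lowest (63.14, 75.99 and 98.82 CPM), and Kcna1 and Kcna6 are highest in the 2 samples with oligodendrocyte sums of 8356 and 67580 CPM.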

How the data were processed

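Total RNA of Pdgfra-sorted mouse brain cells was counted per gene in 13 libraries. The deposited values are raw counts, summed over exons by the authors with featureCounts 1.5.0-p1 and Ensembl release 92 (GRCm38), per the file headers. Strand was not used, at least 10 bases had to overlap, and reads on several genes or with several alignments counted for all of them, so paralogs and overlapping genes share reads. Trim Galore and TopHat2 2.1.1 are named in the submitters' processing notes. Exonic lengths for CPM per kb are those deposited beside the counts.

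Of 37785 genes, 37715 were named from GENCODE M21. P12 replicates 2 and 3 were summed, since their chi-square per degree of freedom over 16120 coding genes was 2.355, against 17.92 to 185.2 for other pairs of the same age. With 1 mean for each age, 12 samples were fitted together by edgeR 4.0.16 in R 4.3.3 (TMM, filterByExpr, robust quasi-likelihood F test), with Benjamini-Hochberg adjustment over 21170 genes and a threshold of 0.05. The common biological coefficient of variation came to 0.513. The procedure was tested on simulated data, where it recovered 28% to 50% of 4-fold and 51% to 71% of 8-fold changes, by comparison. From E16 to P12 it recovered 37% and 51%. Levels are means ± SD of TMM-scaled CPM, and standard errors are the log2 change over the root of F.

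The members, gene lists, marker lists and comparisons were chosen with earlier results of these data known. The rule for named genes takes all members, with log2 changes for those called, up to 3 called genes per direction of each of the lists of other subunits and partners, and fixed marker genes. Adam22, Vapa and Epb41l3, the remaining partners that fell at P80, lie outside it, and Ank3 and markers at 0 were named after their values were seen. The values of 1 gene that the rule names are not reported here. Alternatives were RLE and upper quartile size factors, no filter or 1 CPM in 3 samples, DESeq2 1.42.0, limma-voom (limma 3.58.1), only the ages compared, a replicate block, P12 replicates 2 and 3 apart, no mitochondrial, haemoglobin or ribosomal protein genes, and each replicate left out. Leaving out the 2 samples highest in oligodendrocyte markers was added after seeing the data. Python 3.11.15 with matplotlib 3.10.9 made summaries and figures. Promoter windows are RefSeq's (GRCm38.p6).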

Additional observations from a re-analysis of the deposited data

Results flagged for a closer look

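In 6 of 39 groups of 4 samples tested, all at P310, 1 sample lay far from the other 3, by Dixon's test; chance marks about 1 group in 20. P310 replicate 2 stood apart for Kcna1, at 35.0 CPM with the next sample at 2.76, and for Kcnh5, at 13.1 CPM with the next at 2.64. The same sample stood apart for the summed clustering and trafficking partners, at 2280 CPM with the next at 449, of which Ank3 alone gave 1371 CPM, and for the summed oligodendrocyte markers, at 67600 CPM with the next at 921. P310 replicate 4 stood apart for Kcnh8, at 0.765 CPM where the other P310 samples had no count. When the other 3 values are 0, this test marks any count at all, so that flag carries no weight against the chance rate. P310 replicate 4 stood apart too for Kcnip1, at 1.10 CPM with the next at 0.660, from 13 counts against 5 to 7. The P310 values of Kcnh8 and Kcnip1 enter the test over all ages, in which both were called, also without P310 replicate 4. Kcna1 and Kcnh5 were called in no comparison.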

How the results depend on the processing

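No called result changed direction under any alternative. From E16 to P12, 3 members were called up and 2 down. Up became 5 without the low-count filter and 6 with limma-voom. Down became 1 with upper quartile factors, 5 without the filter, 5 with DESeq2, 7 with limma-voom, 6 with only the ages compared, 4 with P12 replicates 2 and 3 apart and 1 without the 2 samples highest in oligodendrocyte markers. Leaving out 1 replicate gave 1 to 4 up (1 without P12 replicates 2+3) and 0 to 3 down (0 without P12 replicate 1). From E16 to P80 (4 up, 5 down) it gave 3 to 5 up and 4 to 6 down. Over all ages (8) it gave 4 to 10, with 4 without E16 replicate 1 or 2 and 5 without E16 replicate 3, and the counts were 13 without the filter and 15 with limma-voom. No filter gave 2 down from P12 to P80 and 2 up from P80 to P310, where the count was 0, and leaving out 1 replicate gave 0 to 0 in both. Causes were not tested. With a replicate block and P12 replicates 2 and 3 apart, the counts were 4 up and 3 down from E16 to P12, 5 and 7 to P80, 10 over all ages and 0 elsewhere; numbers did not pair the samples, as 3 of 18 same-numbered pairs had deviations correlated above 0.1 (-0.234 to 0.21). Over all genes, DESeq2 called 31 and no filter 423 from P80 to P310, against 0. With 2 P12 samples and members at 1804 to 8595 counts per library, a difference that was not called, a large one included, may have been missed.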
